A study of Arabidopsis thaliana with 12 samples.

Results

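AT2G04400, AT1G26380 and AT1G26420, genes of tryptophan and indole metabolism or near relatives of such genes, are described here across all 4 groups of an Arabidopsis root array experiment. They were taken by locus code, 3 of the 13333 genes that the probe annotation names singly, and each has 1 probe set on the array. They were chosen on the differences between elicitor and control arrays in these same data, so their levels and differences are given as a description, without a test.

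The 12 Affymetrix ATH1 arrays hold total RNA from roots of 7-day-old wild-type Col-0 seedlings, sown densely on a nylon mesh that roots grow through, so that an array reads the pooled roots of many plants. After 3 h with chitin oligomers, with cellobiose, with oligogalacturonides (OGs) or with no elicitor (control), roots were frozen, with 3 biological replicates and 1 array each per group. Chitin oligomers are fungal wall fragments, cellobiose is the repeating disaccharide of cellulose, and OGs are pieces of pectin. The labels give no elicitor dose. The comparisons ask which root transcripts each elicitor changes. The 3 comparisons with the control share its arrays. Values are log2 intensities normalized by the authors, so a difference of 1 is a doubling. In pooled roots, more cells using a gene and more RNA per cell cannot be told apart.

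In plants, tryptophan is made in the plastid from chorismate, the end product of the shikimate pathway, and indole-3-glycerol phosphate synthase closes the indole ring on the way. In Arabidopsis tryptophan feeds indole glucosinolates, the phytoalexin camalexin, indole carbonyl nitriles and auxin. Berberine bridge enzyme-like proteins are oxidases with a bound FAD, and the family includes enzymes of indole metabolism and enzymes that oxidise wall oligosaccharides.

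AT2G04400 encodes the indole-3-glycerol phosphate synthase of tryptophan synthesis, and its transcript was abundant without any elicitor. It stood at log2 10.56, 10.93 and 10.34 on the chitin arrays, against 9.22, 9.06 and 9.20 on the control arrays. On the cellobiose arrays it stood at 9.94, 10.15 and 9.88, and on the OGs arrays at 9.78, 9.72 and 9.57. No elicitor array reached down to the control range, and the gap was smallest for OGs, at 0.34.

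The fitted difference of AT2G04400 from the control was 1.45 ± 0.12 (SE) on the log2 scale after chitin, 2.73-fold. After cellobiose it was 0.83 ± 0.12, 1.78-fold, and after OGs 0.53 ± 0.12, 1.44-fold. The control level already exceeded that of 85.3 to 86.6 percent of all probe sets on the same array, and on the chitin arrays 94.2 to 96.4 percent lay below the gene. The difference was thus a moderate one at a high level, and it ranked 198th among all increases after chitin.

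AT1G26380 encodes the oxidase known as FOX1, which in Arabidopsis converts an indole cyanohydrin to indole-3-carbonyl nitrile. It was near the bottom of the scale in control roots and bright after chitin. The chitin arrays read log2 9.12, 10.23 and 8.61, against 3.91, 3.93 and 4.15 on the control arrays, where 8.72 to 19.4 percent of probe sets were dimmer. The cellobiose arrays read 5.49, 5.82 and 4.96 and the OGs arrays 6.35, 5.87 and 5.53, all between the chitin and the control arrays.

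The fitted difference of AT1G26380 from the control was 5.32 ± 0.29 (SE) after chitin, 1.43 ± 0.29 after cellobiose and 1.92 ± 0.29 after OGs. Because the control mean lay under log2 5, a level close to background, its size is better read as a lower bound. With every value under 5 raised to 5, the mean of AT1G26380 was at least 20.0-fold higher after chitin. It was at least 1.35-fold higher after cellobiose and at least 1.88-fold higher after OGs. These bounds compare means and carry no spread. Cellobiose replicate 3, at log2 4.96, was itself raised to 5 and so showed no difference from the control. The chitin difference was the 4th largest increase among the 22746 probe sets.

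AT1G26420 encodes another member of the family from the same run of genes. It read log2 8.30, 8.57 and 8.27 on the chitin arrays, against 4.03, 3.92 and 4.13 on the control arrays. The cellobiose arrays lay close together, at 5.22, 5.29 and 5.24, and the OGs arrays were spread out, at 6.88, 6.17 and 5.87. Each elicitor group was clear of the control group, and here the cellobiose and OGs groups were also clear of each other.

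The fitted difference of AT1G26420 from the control was 4.35 ± 0.19 (SE) after chitin, 1.22 ± 0.19 after cellobiose and 2.28 ± 0.19 after OGs. With values under 5 raised to 5, it was at least 10.4-fold, at least 1.19-fold and at least 2.48-fold higher. After OGs it was the 10th largest increase of all probe sets, and after cellobiose the 65th.

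In each of the 9 comparisons of a member with the control the elicitor arrays lay wholly above the control arrays. Groups separate in that direction in 10.7 percent of all probe sets after chitin, 12.3 percent after cellobiose and 9.24 percent after OGs, and since the genes were chosen with these differences known nothing is read from the count.

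**Figure D1:**
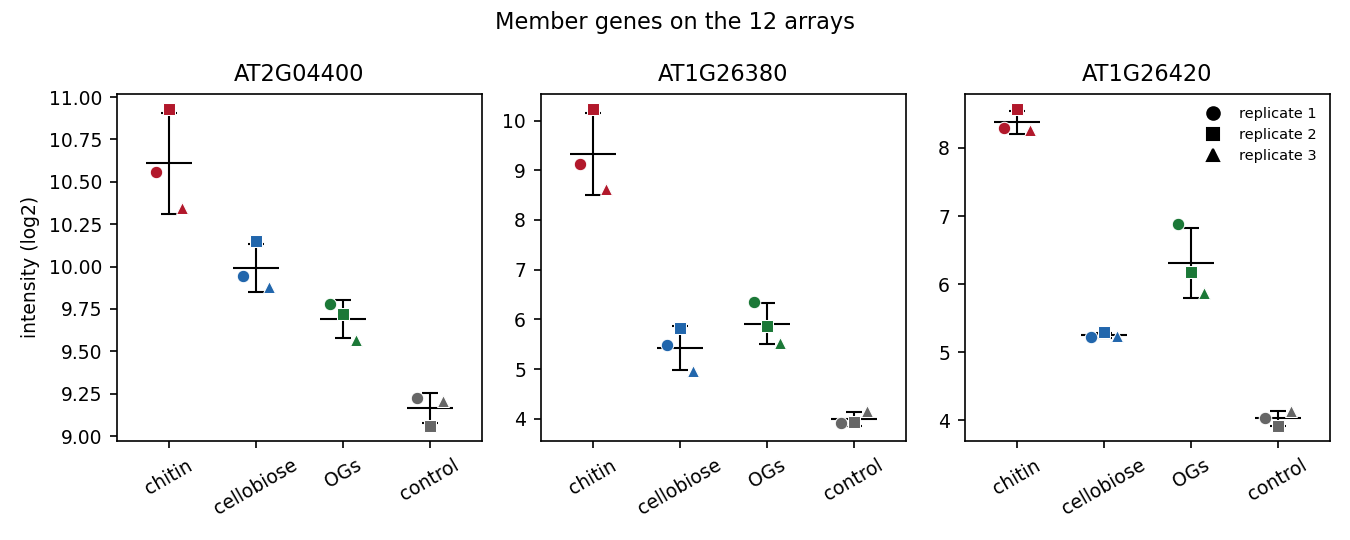
Intensity (log2) of AT2G04400, AT1G26380 and AT1G26420 on the 12 arrays, by group, each gene on its own vertical scale that does not start at 0; points are arrays, marked by replicate number, and bars the mean and SD of 3 arrays. All 3 genes are highest on the chitin arrays (means 10.61, 9.32 and 8.38) and lowest on the control arrays (9.16, 4.00 and 4.03), and the order of cellobiose and OGs is not the same in the 3 panels.

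The 3 genes shared the highest and the lowest group but differed in the middle. The order was chitin, cellobiose, OGs, control for AT2G04400, and chitin, OGs, cellobiose, control for both oxidase genes. For AT2G04400 the OGs mean was 9.69 ± 0.11 and the cellobiose mean 9.99 ± 0.14 (SD, n = 3 each), a fitted difference of -0.30 ± 0.12 (SE). The groups did not overlap but stood only 0.10 apart, less than either SD, so any pair of arrays has OGs the lower. By replicate number the differences were 0.16, 0.43 and 0.32.

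For AT1G26380 the OGs mean was 5.91 ± 0.41 and the cellobiose mean 5.42 ± 0.43 (SD, n = 3 each), a difference of 0.49 ± 0.29 (SE). Those groups overlapped, with the OGs arrays from 5.53 upward and the cellobiose arrays up to 5.82, so that this part of the order does not exceed the spread between arrays. Paired by replicate number, OGs were higher by 0.86, 0.04 and 0.57. For AT1G26420 the OGs mean was 6.31 ± 0.52 and the cellobiose mean 5.25 ± 0.04, a difference of 1.06 ± 0.19 (SE). By replicate number OGs were higher here by 1.66, 0.88 and 0.64, a direction already fixed because the groups did not overlap. Over all probe sets, groups separate with OGs higher in 8.63 percent and with OGs lower in 10.5 percent.

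Chitin stood above both other elicitors for each gene. Against cellobiose the fitted difference was 0.62 ± 0.12 (SE) for AT2G04400, 3.90 ± 0.29 for AT1G26380 and 3.13 ± 0.19 for AT1G26420. Against OGs it was 0.92 ± 0.12, 3.41 ± 0.29 and 2.07 ± 0.19 for the same genes. None of these groups overlapped, which holds with chitin higher for 10.7 percent of all probe sets against cellobiose and for 8.83 percent against OGs.

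The 3 genes also shared the order of some arrays within a group. Chitin replicate 2 was the highest chitin array for all of them, and chitin replicate 3 the lowest. In the OGs group replicate 1 was the highest and replicate 3 the lowest for all of them. AT2G04400 and AT1G26380 correlated at 0.93 over the 12 arrays and at 0.91 after group and replicate means were taken out. For AT1G26380 and AT1G26420 these values were 0.97 and 0.69, and for AT2G04400 and AT1G26420 0.88 and 0.57. These are descriptions over the same arrays, whose RNA and scaling the genes share.

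Other measures also differed, between groups or on single arrays. The 6 measured of 26 listed genes of green tissue averaged log2 6.21 to 7.37 on the chitin arrays, 6.89 to 7.83 on the cellobiose arrays and 7.06 to 7.98 on the OGs arrays, against 8.36 to 8.98 on the control arrays. Every elicitor array was thus below every control array, and the lowest value was that of chitin replicate 2. In the limma fit all 6 were called lower after chitin, and 1 each after cellobiose and OGs. Of all probe sets 11.0, 2.27 and 2.65 percent were called in these comparisons. All 6 were at log2 5 or above on 11 arrays and 5 of them on chitin replicate 2. The only measured root marker of 17 listed, the root hair expansin EXPA7, lay between log2 9.10 and 9.65 on the 12 arrays. On OGs replicate 3 the 3′ probe set exceeded the 5′ one by log2 2.11 for actin and 1.46 for GAPDH, measures of RNA integrity, against 1.15 to 1.61 and 0.36 to 0.86 on the other arrays. The part of these in the members' differences was not tested. Without chitin replicate 2 the chitin difference from the control was 1.3 for AT2G04400, 4.92 for AT1G26380 and 4.22 for AT1G26420. Without OGs replicate 3 the OGs difference was 0.53, 1.94 and 2.50 for the same genes.

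AT1G26380 and AT1G26420 are the first and the last of a run of 5 neighbouring berberine bridge enzyme-like genes, in the gene order of the RefSeq annotation (assembly TAIR10.1). The 3 genes between them behaved unevenly. AT1G26410, next to AT1G26420, read log2 6.19, 7.07 and 5.89 on the chitin arrays, against 4.03, 4.14 and 4.02 on the control arrays. Its chitin SD was 0.62, while the SE rests on a spread shared by all 4 groups. It rose after chitin by 2.32 ± 0.21 (SE; limma, adjusted p = 4e-05), at least 2.60-fold with values under 5 raised to 5. It was at 4.18 ± 0.02 with cellobiose and 4.47 ± 0.08 with OGs, against 4.07 ± 0.07 in the control (SD, n = 3 each), and neither difference passed (limma, adjusted p = 0.845 and 0.359), though the OGs one did without chitin replicate 2 (adjusted p = 0.05). Chitin exceeded cellobiose by 2.2 ± 0.21 (limma, adjusted p = 0.000107) and OGs by 1.91 ± 0.21 (adjusted p = 0.000426) for this gene, in comparisons that called 5.45 and 3.57 percent of all probe sets. Since both of those means lay under log2 5, the bound in each is a log2 difference of at least 1.38, or 2.60-fold. With values raised to 5 the call against OGs was lost (adjusted p = 0.062).

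AT1G26400, in the middle of the run, lay between log2 3.76 and 4.02 on all 12 arrays, and its chitin difference of 0.14 ± 0.08 (SE) did not pass (limma, adjusted p = 0.316). AT1G26390, beside AT1G26380, passed after chitin at 0.42 ± 0.10 (adjusted p = 0.0222), but its group means stayed between 3.69 and 4.11, all under log2 5. Its call was lost without any one of chitin replicates 1, 2 and 3 and control replicates 1 and 2, with an adjusted p of up to 0.108. So within these 5 neighbours the chitin means were above log2 5 at both ends and at AT1G26410. None of the family's probe sets carries the manufacturer's suffix for a shared target, and cross-hybridization between these relatives was not tested.

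Of the 27 listed genes of the whole family, 22 were measured, and 20 without AT1G26380 and AT1G26420. After chitin 7 of these 20 rose and 1 fell, against 11.0 percent of all probe sets called in either direction. The count of 7 was 6 to 8 with 1 array left out and 5 with only the 2 groups compared. Of the 20, 10 had every group mean under log2 5, among them AT1G26390, which is 1 of the 7. The median difference of the 20 was 0.14, against -0.03 for all probe sets. The largest beside AT1G26410 was AT4G20830, known as OGOX1, which oxidises oligogalacturonides and rose by 1.99 ± 0.14 (SE; limma, adjusted p = 5.82e-06). AT4G20860, an oxidase of cellulose fragments, rose by 1.1 ± 0.12 (adjusted p = 0.000142). AT1G30700 rose by 0.76, AT5G44380 by 0.70 and AT5G44390 by 0.65. AT4G20820 fell by 0.85 ± 0.12 (adjusted p = 0.00102), or by at least 0.75 with values under 5 raised to 5, since its chitin mean was 4.96. AT1G30760 differed by 0.73 ± 0.22 and did not pass (adjusted p = 0.0574), but did without OGs replicate 3 or control replicate 3. AT2G34810 was at 7.66 ± 0.33 with chitin and 7.94 ± 0.54 in the control (SD, n = 3 each) and passed after no elicitor. AT1G11770, AT1G30710, AT1G30740, AT1G34575, AT4G20800, AT5G44360, AT5G44410 and AT5G44440 had every group mean under log2 5 and passed after no elicitor.

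After cellobiose 2 of the 20 rose and 1 fell, against 2.27 percent of all probe sets, with a median of 0.09. AT4G20830 rose by 0.89 ± 0.14 (SE; limma, adjusted p = 0.00715) and AT5G44380 by 0.43, while AT4G20820 fell by 0.57. The AT5G44380 call was lost without any one of 8 of the 12 arrays, namely cellobiose replicates 1, 2 and 3, control replicates 1, 2 and 3 and OGs replicates 1 and 2 (adjusted p up to 0.199), and also with median centring, with values raised to 5 and with only the 2 groups compared. AT1G30760 differed by 0.87 ± 0.22 and did not pass (adjusted p = 0.071), but did without chitin replicate 2, OGs replicate 3 or control replicate 3. AT5G44390 differed by 0.52 ± 0.12 and did not pass (limma, adjusted p = 0.0511), but did without chitin replicate 1 or 2 or control replicate 1. It also passed among only probe sets that reach a group mean of log2 5, and with only the 2 groups compared. The count of 2 was 0 without cellobiose replicate 3, 1 without cellobiose replicate 1 or 2, OGs replicate 1 or 2 or control replicate 2, and 4 without chitin replicate 2. The decrease of AT4G20820 was not called without cellobiose replicate 2 or 3 or any one control array.

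After OGs 4 of the 20 rose and 0 fell in the limma fit, against 2.65 percent of all probe sets, with a median of 0.08. The 4 were AT4G20830 at 1.05 ± 0.14 (SE; limma, adjusted p = 0.00318), AT5G44390 at 0.80, AT1G30700 at 0.64 and AT5G44380 at 0.45. At an unadjusted p under 0.05 the counts were 6 higher and 1 lower. The calls of AT1G30700 and AT5G44380 were each lost without any one of 4 arrays (highest adjusted p = 0.0982 for AT1G30700 and 0.112 for AT5G44380), and none of the 4 genes was called with values under 5 raised to 5. No value of these 4 genes lay under 5, so their differences stayed the same there. Only their adjusted p rose, in the refit of all probe sets. The count was 2 without OGs replicate 1 or 2. AT4G20820 differed by -0.50 ± 0.12 and did not pass (adjusted p = 0.056), but did so without cellobiose replicate 1. AT4G20860 differed by 0.48 ± 0.12 and did not pass (limma, adjusted p = 0.057), but did without cellobiose replicate 1 or 3 or control replicate 3. It also passed without the replicate block and with quantile normalization.

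Between elicitors, 4 of the 20 were higher with chitin than with cellobiose, against 5.45 percent of all probe sets called in either direction. Chitin exceeded OGs in 3 of the 20, against 3.57 percent of all probe sets, and AT1G26410 was among both. AT4G20830 was higher with chitin than with cellobiose by 1.11 ± 0.14 (SE; limma, adjusted p = 0.000767) and than with OGs by 0.94 ± 0.14 (adjusted p = 0.00269). For AT4G20860 these differences were 0.98 ± 0.12 (adjusted p = 0.000598) and 0.61 ± 0.12 (adjusted p = 0.0141). AT1G30700 was higher with chitin than with cellobiose by 0.51 ± 0.12 (adjusted p = 0.0327). The AT1G30700 call and the AT4G20860 call against OGs were each lost without any one of 4 arrays and with values raised to 5. Neither gene had a value under 5, so raising values left both differences the same. Between OGs and cellobiose 1 of the 20 was called, against 1.31 percent of all probe sets. That gene, AT5G44400, was at 4.58 ± 0.41 with OGs and 5.54 ± 0.16 with cellobiose (SD, n = 3 each), and with the OGs arrays under log2 5 the fitted difference of -0.95 ± 0.19 (adjusted p = 0.0398) leaves a bound of -0.54. The call was lost without any one of 8 of the 12 arrays, with median centring (adjusted p = 0.0554), with values raised to 5 (adjusted p = 0.364) and with only the 2 groups compared (adjusted p = 0.0649).

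**Figure D2:**
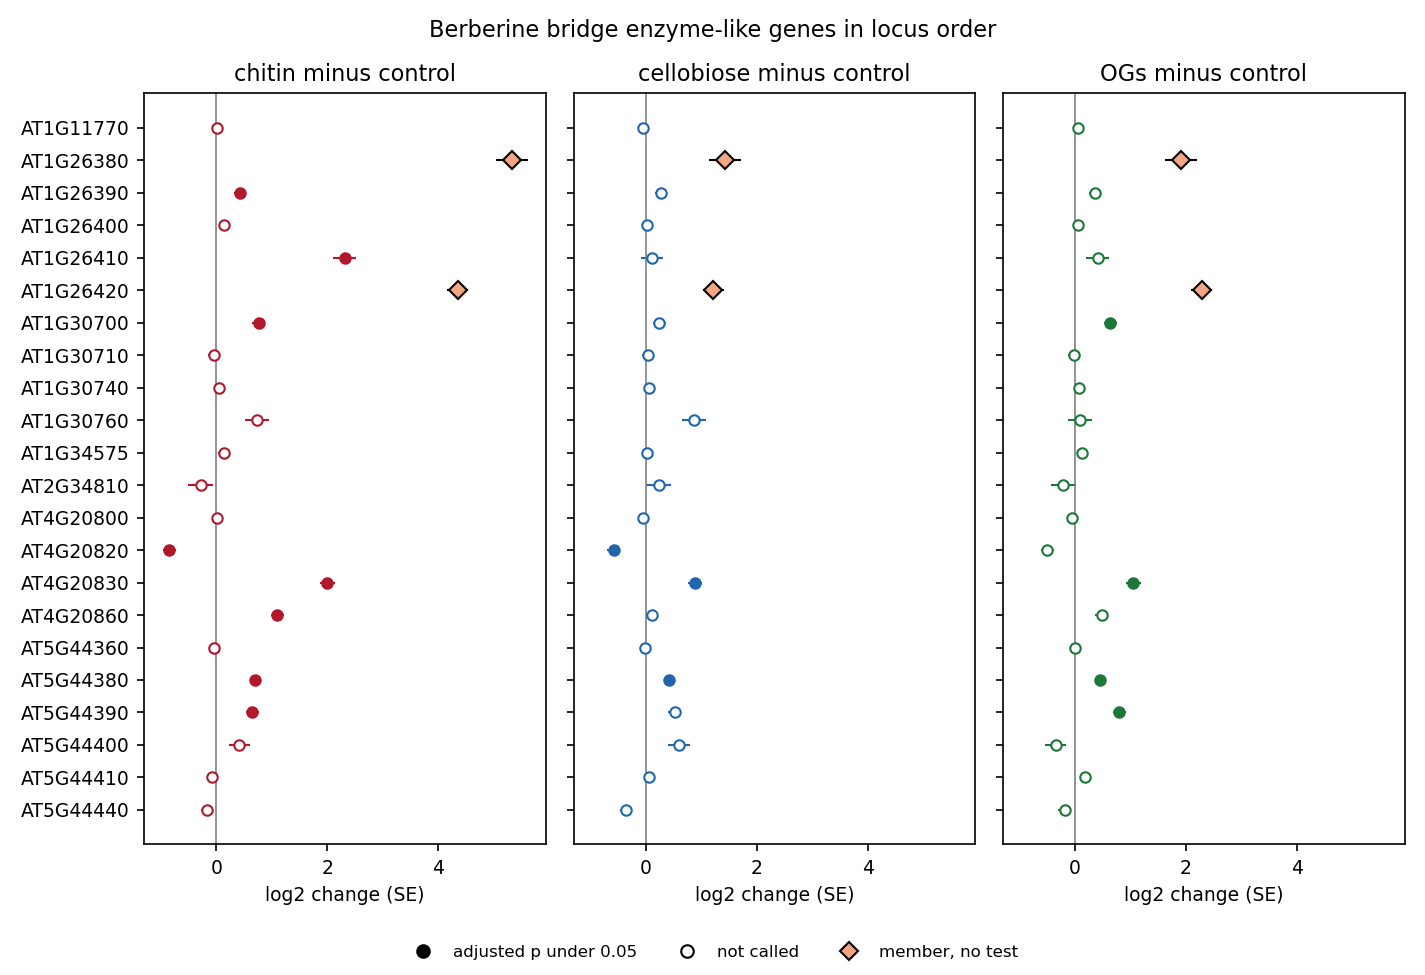
Fitted log2 difference from the control (horizontal axis, bars are the SE) for the 22 measured berberine bridge enzyme-like genes in locus order, after chitin, cellobiose and OGs; filled circles passed an adjusted p of 0.05 and diamonds are AT1G26380 and AT1G26420, shown without a test. The diamonds lie at 5.32 and 4.35 after chitin, AT1G26410 between them at 2.32 and AT1G26400 at 0.14.

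Tryptophan branch and indole genes were then read from lists of 88 genes outside the berberine family, of which 11 could be read: AT2G04400 and 10 others. The transcription factors that control indole metabolism, and most of the enzymes, were not named in the annotation and are not analysed here. Of the tryptophan branch 2 other genes were measured. AT5G48220, a relative of AT2G04400 annotated to the same enzyme family, went the other way and fell after chitin by 0.48 ± 0.10 (SE; limma, adjusted p = 0.01), at 5.30 ± 0.10 with chitin and 5.79 ± 0.20 in the control (SD, n = 3 each). That call was lost without chitin replicate 2 (adjusted p = 0.0527) and with only the 2 groups compared (adjusted p = 0.0502). AT5G48220 differed by -0.21 after OGs and did not pass (adjusted p = 0.335). AT4G02610, the indole synthase related to the alpha subunit of tryptophan synthase, was at 7.74 with chitin and 7.94 in the control, and did not pass (adjusted p = 0.137).

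CYP71B6, a cytochrome P450 that acts on indole-3-acetonitrile in Arabidopsis, was the 1 measured gene of camalexin and indole carbonyl nitrile synthesis beside AT1G26380. It read log2 11.35, 11.41 and 11.11 on the chitin arrays, against 9.71, 9.59 and 9.80 on the control arrays. It rose by 1.59 ± 0.10 after chitin (SE; limma, adjusted p = 3.58e-06), by 0.65 ± 0.10 after cellobiose (adjusted p = 0.00847) and by 0.74 ± 0.10 after OGs (adjusted p = 0.0043). The cellobiose call was lost without cellobiose replicate 3 (adjusted p = 0.0762) and with values under 5 raised to 5 (adjusted p = 0.0603). CYP71B6 had no value under 5, so raising values left its difference at 0.65. Chitin exceeded cellobiose by 0.95 (adjusted p = 0.000288) and OGs by 0.85 (adjusted p = 0.000797).

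Upstream, AT1G22410, a DAHP synthase at the entry of the shikimate pathway, rose after chitin by 0.40 ± 0.08 (SE; limma, adjusted p = 0.0114). That call was lost without chitin replicate 2 or control replicate 1 or 2, and with only the 2 groups compared (adjusted p = 0.102). AT1G22410 differed by 0.36 ± 0.08 after cellobiose and did not pass (adjusted p = 0.053), but did without control replicate 3 (adjusted p = 0.0188). AT5G66120, the 3-dehydroquinate synthase, differed by 0.26 after chitin and 0.34 after cellobiose and passed in neither. In the parallel branch to tyrosine, the arogenate dehydrogenase gene AT5G34930 passed after chitin at 0.27 ± 0.08 (adjusted p = 0.0444), a call lost without any one of 11 of the 12 arrays, and AT1G15710 stood at -0.05 (adjusted p = 0.831).

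UGT74B1, the glucosyltransferase of glucosinolate synthesis, rose after chitin by 0.45 ± 0.12 (SE; limma, adjusted p = 0.0395), a call lost without chitin replicate 1 or 2, cellobiose replicate 3, OGs replicate 3 or control replicate 1 or 2. After cellobiose and OGs it stood at 0.05 and 0.06. Of the auxin synthesis genes YUC2 and YUC6, flavin monooxygenases that make auxin from a tryptophan product, neither passed after any elicitor, and YUC6 differed most, by 0.38 ± 0.14 after cellobiose (adjusted p = 0.181).

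**Figure D3:**
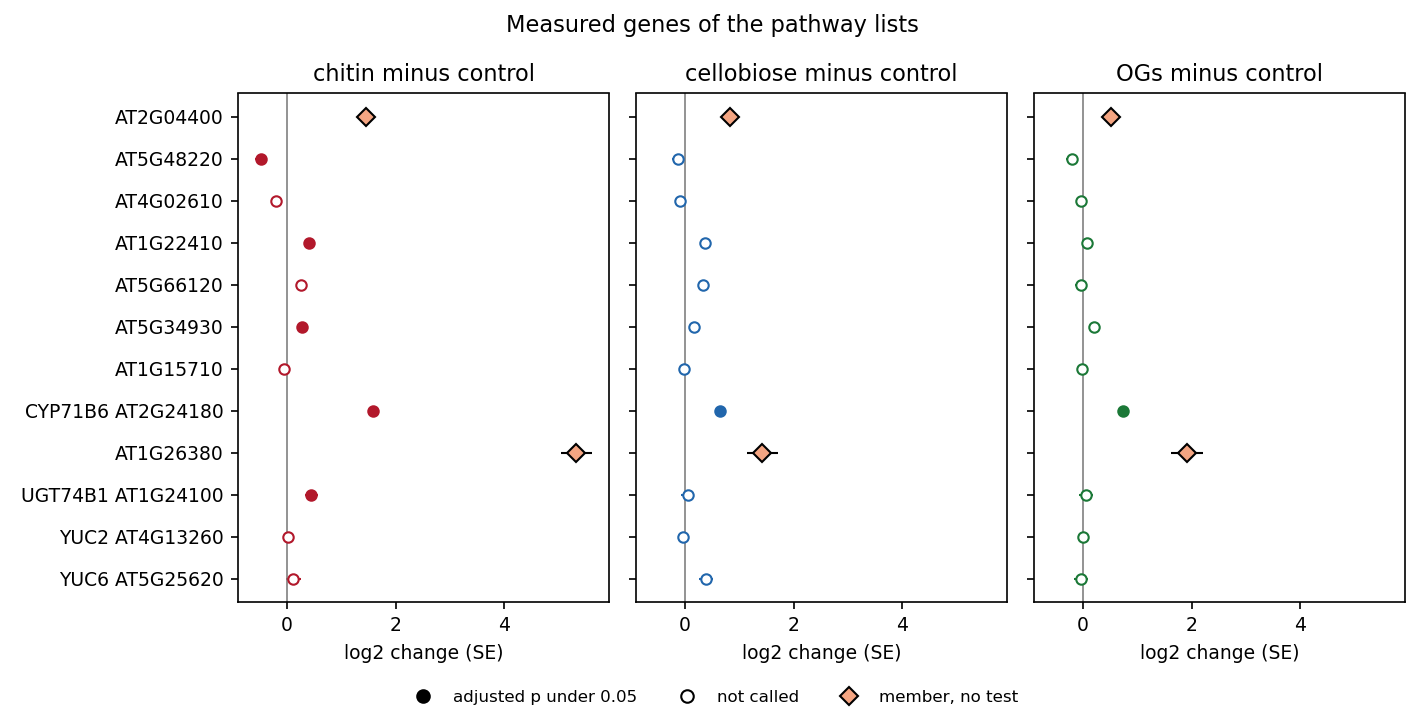
Fitted log2 difference from the control (horizontal axis, bars are the SE) for the 12 measured entries of the tryptophan, shikimate, tyrosine, indole and auxin lists after chitin, cellobiose and OGs; filled circles passed an adjusted p of 0.05 and diamonds are AT2G04400 and AT1G26380, shown without a test. CYP71B6 is filled in all 3 panels, at 1.59, 0.65 and 0.74, and AT5G48220 lies below 0 at -0.48 after chitin.

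Genes around AT2G04400 were read as its local setting. Of the 3 protein-coding genes on either side, 3 were measured. AT2G04410, directly beside it, stood at 9.33 with chitin and 9.52 in the control (limma, adjusted p = 0.377). AT2G04380 and AT2G04420 had group means under log2 4, and neither passed after any elicitor. Beyond the last gene of the oxidase run, AT1G26450 differed by 0.47 ± 0.17 after chitin (SE; adjusted p = 0.107) and AT1G26460 by -0.09 (adjusted p = 0.584).

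The genes most like each member were taken by the Pearson correlation of log2 values over the 12 arrays, among 361 named genes with a group mean of at least log2 5 and group means spanning at least 1. All of these genes share the arrays with the members, so the values are descriptions. Closest to AT2G04400 were AT5G53990, a glycosyltransferase gene (r = 0.99), the chitinase gene AT4G01700 (0.98), AT3G09405 of the pectin acetylesterase family (0.97), AT2G15220 (0.97), whose probe set may detect other transcripts too, and AT3G54040 (0.96). Like AT2G04400 they were higher with cellobiose than with OGs, an order that the choice by correlation favours. For example, AT3G54040 stood at log2 12.22 with chitin, 11.84 with cellobiose, 11.48 with OGs and 10.95 in the control.

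Closest to AT1G26380 were the receptor-like kinase gene AT5G59680 and the pectin methylesterase family gene AT2G47550 (r = 0.99 each), AT1G10990 (0.98), the peroxidase gene AT3G03670 (0.98) and AT1G36640 (0.98). Closest to AT1G26420 were the receptor-like kinase gene AT1G51890 (r = 0.98), AT1G36640, AT5G25930 and AT2G23680 (0.98 each) and CCOAMT, a methyltransferase gene of the caffeoyl-CoA type (0.98). In these 9 genes the OGs mean was above the cellobiose mean, which the choice by correlation again favours. For example, AT5G59680 stood at log2 9.87 with chitin, 8.04 with cellobiose, 8.23 with OGs and 7.36 in the control. For AT1G26380 itself the OGs and cellobiose arrays overlapped. Once group and replicate means were taken out, the correlation ranged from 0.42 to 0.82 for the AT2G04400 set, from 0.67 to 0.93 for the AT1G26380 set and from 0.32 to 0.65 for the AT1G26420 set.

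**Figure D4:**
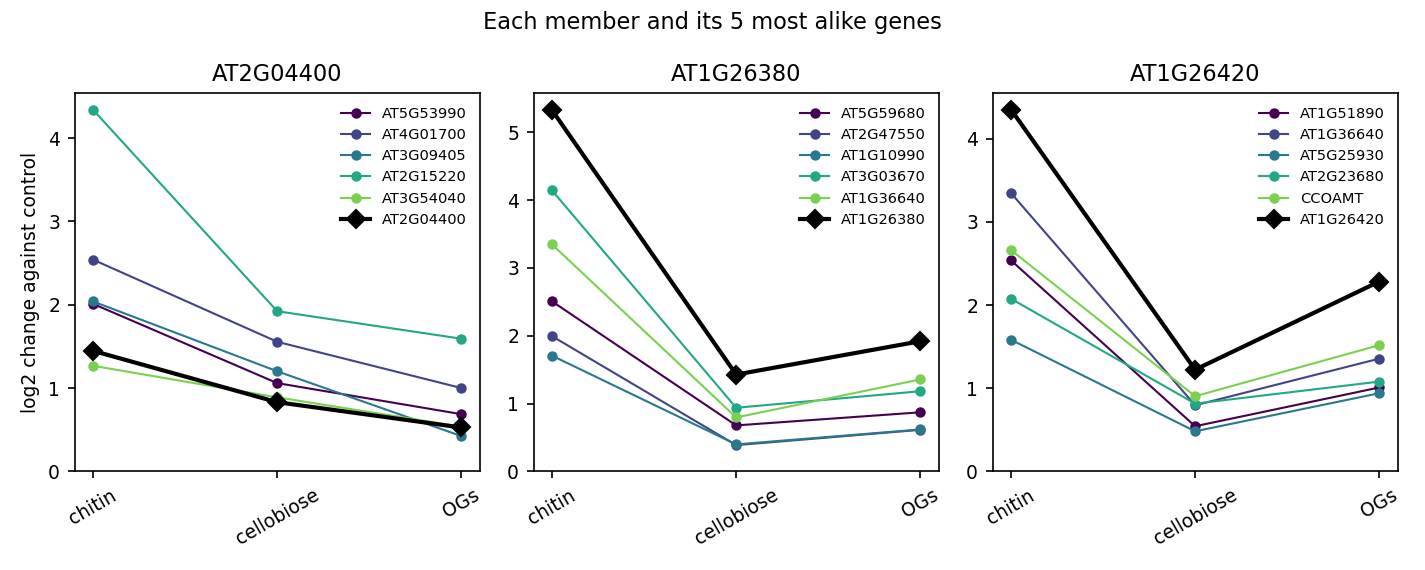
Fitted log2 difference from the control (vertical axis) after chitin, cellobiose and OGs (horizontal axis) for each member (black diamonds) and the 5 genes most correlated with it over 12 arrays (circles). The lines around AT2G04400 fall from cellobiose to OGs and those around AT1G26380 and AT1G26420 climb, which the choice by correlation favours.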

How the data were processed

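The deposited table holds log2 probe set intensities of 12 arrays, which the authors normalized between arrays. GCRMA is named per the labels' design text, and per the submitters' processing notes Affymetrix Expression Console. The step that gave the final values is not stated, and no version is given in the sources used. Such scaling compresses dim probe sets and hides a shift shared by all transcripts. Of 22810 probe sets, 64 manufacturer's controls were left out. Of the remaining 22746, 13513 had 1 gene in the probe annotation, 503 several and 8730 none. A gene was read through its brightest probe set.

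All arrays were fitted together in R 4.3.3 with limma 3.58.1 (lmFit, eBayes), with terms for 4 groups and a block for the replicate number (6 residual degrees of freedom), since the design text takes ratios within sample pairs. Benjamini-Hochberg adjustment ran over all 22746 probe sets within each of 6 contrasts, and a gene that passed 0.05 is called. Deviations from group means correlated at -0.23 to 0.25 between same-numbered arrays (median 0.06), so the numbers themselves carry little pairing. In a group at most 5 values of 2 arrays were identical. P-values measure the spread between the biological replicates the labels name. That spread is estimated once per probe set over all 4 groups, so an SE can be too small where the compared groups vary most. For AT1G26410 the SD was 0.62 with chitin and 0.07 in the control, and for AT1G26380 0.825 and 0.13. The fit was tested on simulated data with the same spread in every group, so that test does not bear on unequal spread.

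Named genes were the members, every measured gene of the tryptophan, camalexin, regulator and berberine lists, up to 4 called genes of other lists, the 5 genes most like each member and its measured neighbours within 3 loci. AT5G66120, AT1G15710, YUC2 and YUC6 fall outside this rule and were named after their values were seen, to complete their lists. The members and the lists were chosen with earlier results of these data known. No genome build is named for the arrays, so no coordinates are given, and no sequences were used here. The number of arrays limits the precision.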

Additional observations from a re-analysis of the deposited data

How the results depend on the processing

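Each value was recomputed without the replicate block, with quantile normalization, with median centring, with only probe sets that reach a group mean of log2 5, with values under log2 5 raised to 5, with only the 2 groups compared, and without each array in turn. No difference of a member from the control or between elicitors changed sign, and no single listed gene that was called did. Raising dim values to 5 moved AT1G26380 to 4.32 after chitin, 0.44 after cellobiose and 0.91 after OGs, and AT1G26420 to 3.38, 0.25 and 1.31, because the control level itself was raised. It also cut the probe sets called to 1408 after chitin, 155 after cellobiose and 110 after OGs, and to 585 for chitin against cellobiose, 323 for chitin against OGs and 118 for OGs against cellobiose. The berberine genes called were then 0 higher and 0 lower after cellobiose and 0 higher after OGs. Median centring left 1 berberine gene called higher after cellobiose. With only the 2 groups compared, 1088 probe sets were called after chitin and 303 after OGs, while the count after cellobiose was larger, at 714, and 2 berberine genes were higher after OGs. The chitin calls of AT5G48220, AT1G22410, AT5G34930, UGT74B1, AT1G26390 and AT5G44390 were then lost. Those of UGT74B1 and AT1G26390 were also lost with values raised to 5. Genes with no value under 5, such as UGT74B1, CYP71B6, AT4G20830 and AT5G44380, kept the same difference in that setting. Their calls were lost because the refit of all probe sets raised the adjusted p.

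Without the replicate block the counts were 2698 after chitin, 611 after cellobiose and 676 after OGs, against 2507, 516 and 603 with it, and the members' differences were the same. AT4G20860 was then called after OGs (0.48, limma adjusted p = 0.0344), and AT1G22410 after cellobiose (adjusted p = 0.0371) and between chitin and OGs (adjusted p = 0.049). AT1G30760 passed after chitin with quantile normalization (0.76, adjusted p = 0.048), median centring (adjusted p = 0.042) and the filter on dim probe sets (adjusted p = 0.049). The calls after cellobiose were 351 higher and 165 lower. Median centring gave 292 higher and 237 lower, values raised to 5 gave 129 and 26, and the fit of only the 2 groups turned the balance, at 349 higher and 365 lower.

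Leaving out 1 array gave 1540 (without chitin replicate 2) to 2640 probe sets called after chitin, 138 (without cellobiose replicate 3) to 583 after cellobiose and 250 (without OGs replicate 1) to 714 after OGs. Between elicitors the ranges were 625 to 1495 for chitin against cellobiose, 456 to 1142 for chitin against OGs and 153 to 441 for OGs against cellobiose. AT2G04400 ranged from 0.69 to 0.93 after cellobiose and from 0.39 to 0.63 after OGs. AT1G26380 ranged from 1.19 to 1.76 after cellobiose and from 1.66 to 2.25 after OGs. AT1G26420 ranged from 4.22 to 4.50 after chitin, from 1.15 to 1.37 after cellobiose and from 3.00 to 3.26 for chitin against cellobiose. The berberine genes called ranged from 0 to 4 higher and 0 to 1 lower after cellobiose, and from 2 to 5 higher and 0 to 1 lower after OGs. The cause of these shifts was not tested. No member and no berberine gene had a further probe set with 1 gene, so another choice of probe set gave no new value.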
